A study of Mus musculus with 20 samples.

Results

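The effect of losing Olfm2 on gonadal fat was read from the arrays of the depot labelled g, 10 of the 20 arrays of the series. The titles of 5 give a number with WT and those of 5 a number with KO. The titles do not say what the number stands for. The remaining 10 arrays come from the depot labelled sc and served to estimate the spread and to test whether an effect differed between depots. Both g groups were described as adipocytes obtained from mouse fat and matured in culture, and they differ in the labelled genotype, wild type or Olfm2 knockout. That g stands for the gonadal depot is taken here and not spelled out in the labels, which give no strain, sex, age or diet, nor the kind of knockout (whole body or 1 cell type), and do not say whether the cultures were separate. The p-values therefore measure the spread between these samples. The series' design text names another gene, PKP2, for the sc arrays, and the genotype labels were used instead. Each value is a log2 array signal, so that 1 unit is a 2-fold difference, and a difference is always knockout minus wild type. Array values are given in the order g286 WT, g287 WT, g307 WT, g308 WT and g309 WT, and for the knockout g300 KO, g306 KO, g317 KO, g318 KO, g320 KO.

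Olfm2 encodes olfactomedin 2, a secreted glycoprotein of the olfactomedin family. White fat stores triglyceride in fat cells, which make up most of its volume but share the tissue with precursors, vessels and many immune cells. Macrophages are the main immune cells of visceral fat: lipid-associated macrophages gather around dying fat cells and take up their lipid, while resident macrophages lie along vessels and clear proteins and iron. Mast cells, which store proteases and histamine in granules, are a smaller population. In the RNA of such a mixture, fewer cells of a type and less RNA per cell cannot be told apart.

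The labelled gene was lower on every knockout array. Olfm2 read 4.30, 4.60, 4.08, 4.54 and 4.17 in wild-type and 3.43, 3.61, 3.36, 3.56 and 3.72 in knockout samples, a change of -0.80 (SE 0.19, adjusted p = 0.00784), and the exact two-sided permutation p of the 5 against 5 arrays was 0.00794, the smallest that 5 against 5 can give. The 2 groups did not overlap, although the signal was dim in both. The lower quartile of all genes lay between 4.62 and 4.77 on these arrays, and every value of Olfm2 lay below that level of its own array. Where the probe lies in relation to the deletion is not stated, so the remaining signal cannot be read as a remaining transcript.

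Markers of cells other than fat cells were present on all g arrays, which goes against RNA of fat cells alone. The mean of 22 macrophage genes was 9.21 to 9.78 on the wild-type arrays and 7.90 to 8.91 on the knockout arrays, and that of 11 genes of mesothelium, the sheet of cells that covers visceral fat, 6.14 to 6.97 on the wild-type arrays and 6.15 to 7.77 on the knockout arrays. Endothelial genes of blood vessels averaged 7.80 to 8.35 on the wild-type arrays and 8.02 to 8.70 on the knockout arrays. The mean of 23 liver genes was 7.36, 5.38, 5.10, 8.41 and 5.44 on the wild-type arrays and 5.50, 9.14, 9.87, 7.26 and 8.74 on the knockout arrays. It was over 7 on 6 of the 10 arrays, 2 wild-type and 4 knockout, and g300 KO was the knockout array without this signal. Because the liver signal is unevenly split between the genotypes, the described genes that lost their call with the mean of the liver genes as a covariate are named where they are first described. Y-linked genes were expressed on all 10 arrays.

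Fat-cell transcripts were higher and immune-cell transcripts lower in knockout samples, and the 2 sets of transcripts were first summarised separately. A fat-cell anchor was the mean of 10 fat-cell genes (Adipoq, Plin1, Cidec, Lipe, Pnpla2, Dgat2, Fabp4, Aqp7, Plin4 and Mrap). It was 11.36, 11.53, 11.11, 11.40 and 11.15 on the wild-type arrays and 11.79, 11.67, 11.57, 11.55 and 11.68 on the knockout arrays. A leukocyte anchor averaged 14 white blood cell genes (Ptprc, Laptm5, Tyrobp, Fcer1g, Coro1a, Cd53, Lcp1, Arhgdib, Itgb2, Rac2, Dock2, Vav1, Ikzf1 and Lcp2). It was 9.58, 9.36, 9.78, 9.20 and 9.81 on the wild-type arrays and 8.69, 8.94, 7.96, 9.0 and 8.23 on the knockout arrays. Neither anchor mean overlapped between genotypes, but their genes differed. Of the 10 fat-cell anchor genes 5 were called higher (range 0.01 to 0.59) and 1 did not overlap. Of the 14 leukocyte anchor genes 6 were called lower (range -1.345 to -0.50) and 10 did not overlap. Over all genes 5.01% were called higher, 6.27% lower, and 10.4% did not overlap. The fat-cell anchor was higher by 0.34 and the leukocyte anchor lower by 0.98 in the mean of the knockout arrays. Arrays g317 KO and g320 KO had the lowest leukocyte anchor, and their liver means, 9.87 and 8.74, were among the 3 highest; the part of the liver RNA in the anchors was not tested. Without single arrays the test was no longer passed by Pnpla2 (without g307 WT, g309 WT, g300 KO, g317 KO or g320 KO), with adjusted p up to 0.0831. The call was lost with the liver covariate by Pnpla2 (adjusted p = 0.0911).

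**Figure D1:**
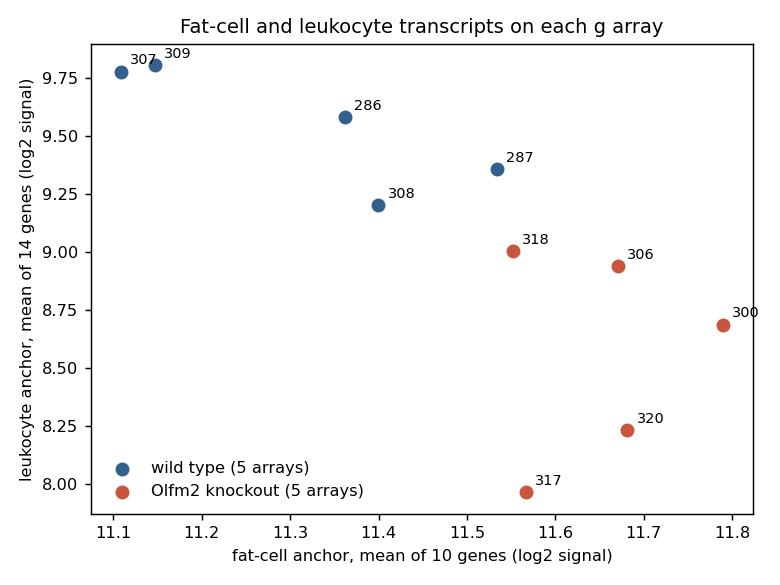
Mean log2 signal of the 10 fat-cell anchor genes (horizontal axis) against that of the 14 leukocyte anchor genes (vertical axis), 1 point per g array labelled with the number in its title. The wild-type arrays lie at 11.11 to 11.53 and 9.20 to 9.81, the knockout arrays at 11.55 to 11.79 and 7.96 to 9.0.

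Across the 19505 genes tested, 977 were called higher (5.01%) and 1223 lower (6.27%) in knockout samples at an adjusted p under 0.05, together 11.3%. For 10.4% of genes the 5 arrays of one genotype did not overlap with those of the other. Against this background, 80 of the 208 genes on the 11 fat-cell lists were called higher (38.5%) and 8 lower (3.85%), with a median difference of 0.27. The 269 genes on the 18 immune lists went the other way, with 111 called lower (41.3%), 8 higher (2.97%) and a median of -0.56. The median over all genes was 0.02. Retnla, the only gene on both kinds of list, is not in these counts. The liver signal bears on how many of these genes are called. With the mean of the liver genes as a covariate 47 fat-cell genes were higher and 71 immune genes lower. A fit without the liver-high arrays, those over 7, left out the 6 g arrays and 2 sc arrays. These were sc300KO and sc318KO, with liver means of 9.32 and 7.29. It left 3 wild-type g arrays and 1 knockout g array, which has no spread of its own, so its counts are not given. With the leukocyte anchor as a covariate 27 fat-cell genes were called higher, and with the fat-cell anchor as a covariate 13 immune genes lower. Housekeeping genes differed too, with a median of -0.16: centring each array on them lifts the median over all genes to 0.21 and gives 3044 genes higher and 707 lower. Without g307 WT, 1425 genes were called in all. The 8 lower fat-cell genes became 4 without g309 WT or g317 KO, 5 without g286 WT and 5 with the liver covariate.

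**Figure D2:**
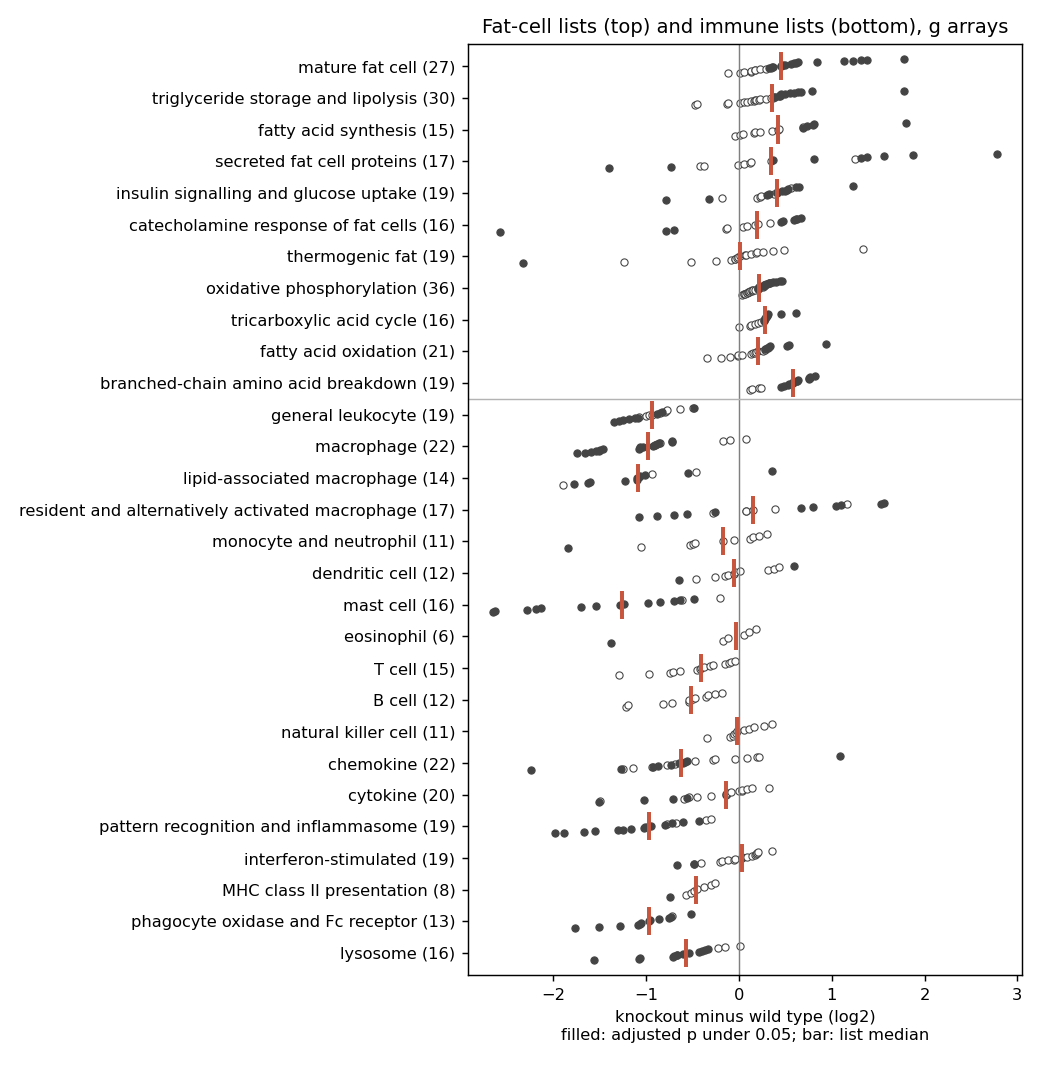
Knockout minus wild-type difference (log2, horizontal axis) of each gene on the 11 fat-cell lists above the grey line and the 18 immune lists below it, with the number of measured genes in brackets; filled points had an adjusted p under 0.05 and the bar is the list's median. Medians range from 0.02 for thermogenic fat to 0.58 for branched-chain amino acid breakdown among fat-cell lists, and from -1.26 for mast cells to 0.15 for resident and alternatively activated macrophages among immune lists.

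Of 27 genes of mature fat cells 17 rose, with a median of 0.45, while several core storage genes differed little. Pck1, which makes the glycerol backbone of triglyceride, read 8.42, 8.91, 8.11, 8.59 and 8.32 in wild-type and 10.10, 9.79, 10.58, 9.90 and 10.88 in knockout samples, a rise of 1.78 (SE 0.23, adjusted p = 8.23e-05). Slc2a4, the insulin-responsive glucose transporter GLUT4, read 6.91, 7.18, 6.65, 6.85 and 6.51 and 8.10, 7.99, 8.43, 7.64 and 8.11, a rise of 1.23 (SE 0.14, adjusted p = 3.97e-05). For both genes the lowest knockout array lay above the highest wild-type array. Klf15, a transcription factor of late fat-cell differentiation, rose by 1.13, Adig, a small protein of the lipid droplet, by 0.84, and the master regulators Pparg and Cebpa by 0.48 and 0.56. Fabp4, the fatty acid carrier, differed by 0.01 (adjusted p = 0.969), Lpl, the lipase that takes up fat from blood, by 0.06 (adjusted p = 0.799), and Lep, the hormone leptin, by 0.13 (adjusted p = 0.634).

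The secreted products of fat cells included Orm3. Among called genes whose arrays did not overlap it had the largest rise, with Gm, Rik and olfactory or vomeronasal receptor genes passed over. This acute-phase glycoprotein of the orosomucoid family, which binds lipids and dampens inflammation, read 4.21, 3.94, 3.67, 4.06 and 3.76 on the wild-type arrays and 6.65, 6.47, 7.25, 6.66 and 6.54 on the knockout arrays. Every knockout array was well above every wild-type array, and the difference was 2.78 (SE 0.17, adjusted p = 1.86e-08). Its relatives Orm1 and Orm2 rose less, by 0.82 (SE 0.19, adjusted p = 0.00869) and 0.71 (SE 0.21, adjusted p = 0.0296); the Orm2 arrays overlapped between genotypes and the Orm1 arrays did not. How well the probes tell these 3 related genes apart is not given in the sources used here. Of 15 acute-phase genes these 3 rose and 1 fell, and 10 lay above 0, called or not, with a median of 0.41. Lcn2, which binds bacterial iron carriers, was the one that fell, by 1.40 (adjusted p = 0.0407) with overlapping arrays. On leaving out 1 array the test was no longer passed by Orm2 (without g307 WT, g309 WT, g300 KO, g306 KO, g317 KO or g318 KO) and Lcn2 (without g286 WT, g287 WT, g308 WT, g309 WT, g300 KO, g306 KO, g317 KO or g318 KO), with adjusted p up to 0.102. With the liver covariate the test was not passed by Orm2 (adjusted p = 0.146).

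The promoters of Orm3 and Orm2 are shown because these neighbours on 1 chromosome rose by such different amounts. Each window runs from 250 bases before to 50 bases after the annotated start in RefSeq (GRCm38.p6), 5′ to 3′ along the gene, at chr4:63355908-63356207 on the plus strand for Orm3 and chr4:63362199-63362498 on the plus strand for Orm2. Capitals mark TTGCNCAA, a form of the site of C/EBP factors, which was searched on both strands.
Orm3: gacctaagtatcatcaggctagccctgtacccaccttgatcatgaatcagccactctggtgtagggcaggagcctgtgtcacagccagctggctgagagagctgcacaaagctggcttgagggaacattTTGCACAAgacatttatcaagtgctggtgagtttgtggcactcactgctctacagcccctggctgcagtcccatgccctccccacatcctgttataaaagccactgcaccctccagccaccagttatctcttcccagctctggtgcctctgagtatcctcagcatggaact
Orm2: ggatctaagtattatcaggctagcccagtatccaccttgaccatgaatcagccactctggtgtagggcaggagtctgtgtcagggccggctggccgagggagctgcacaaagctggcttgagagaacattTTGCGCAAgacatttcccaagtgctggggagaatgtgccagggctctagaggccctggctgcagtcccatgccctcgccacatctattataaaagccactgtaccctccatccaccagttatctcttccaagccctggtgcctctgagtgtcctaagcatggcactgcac
Both windows hold the motif at 1 place, its first base at -121 for Orm3 and -120 for Orm2 counted from the start, and over a global alignment 86.6% of the positions of the 2 windows were identical. The motif occurs in 2.92% of the 27025 promoters with 1 window per gene, and in 6 of the 12 acute-phase genes that have a window. Orm1 has no entry in this table.

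Among the other secreted proteins, Timp4, an inhibitor of matrix-degrading proteases, read 8.03, 8.55, 7.66, 8.33 and 7.81 and then 9.95, 9.59, 10.24, 9.86 and 10.12 in knockout samples, a rise of 1.88 (SE 0.16, adjusted p = 1.35e-06). Retn, the hormone resistin, read 10.69, 10.92, 10.36, 10.83 and 10.14 against 11.87, 11.99, 11.99, 11.82 and 12.15, a rise of 1.38 (SE 0.13, adjusted p = 6.26e-06). Rbp4, the carrier of retinol in blood, rose by 1.32 (SE 0.20, adjusted p = 0.000356), and Nrg4, a growth factor secreted by fat, by 0.81 (SE 0.17, adjusted p = 0.00388). The arrays of these 4 genes did not overlap between genotypes. Adipoq, adiponectin, rose by 0.36, and Metrnl, a secreted factor of muscle and fat, fell by 0.73. Over the list 7 of 17 genes rose and 2 fell, with a median of 0.34. When 1 array was left out the test was no longer passed by Metrnl (without g286 WT, g307 WT, g309 WT, g300 KO, g317 KO or g320 KO), with adjusted p up to 0.135. Adding the liver mean as a covariate ended the call of Metrnl (adjusted p = 0.17).

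Genes of fat storage, release and synthesis rose in part. Of 30 triglyceride genes 12 rose (median 0.36), among them the hormone-sensitive lipase Lipe (0.59), the adipose triglyceride lipase Pnpla2 (0.45), its inhibitor G0s2 (0.44), the phosphatidate phosphatase Lpin1 (0.63) and Gpihbp1, which holds lipoprotein lipase on capillaries (0.79). Of 15 fatty acid synthesis genes 5 rose (median 0.43). Thrsp, a lipogenic nuclear protein, led them with 9.75, 9.77, 9.10, 9.43 and 9.37 in wild-type and 10.97, 11.25, 11.76, 10.87 and 11.55 in knockout samples, a rise of 1.80 (SE 0.20, adjusted p = 3.97e-05) with no overlap. The enzymes Fasn and Acaca rose by 0.80 and 0.80, the elongase Elovl6 by 0.73 and the sugar-responsive factor Mlxipl by 0.68. Scd1, the stearoyl desaturase, differed by 0.22 (adjusted p = 0.107). With 1 array fewer the test was no longer passed by G0s2 (without g286 WT, g307 WT, g308 WT, g309 WT, g300 KO, g317 KO, g318 KO or g320 KO), Gpihbp1 (without g307 WT, g309 WT, g300 KO or g320 KO), Fasn (without g307 WT or g317 KO), Acaca (without g307 WT, g309 WT, g306 KO, g317 KO or g320 KO), Elovl6 (without g307 WT, g309 WT or g317 KO) and Mlxipl (without g307 WT, g309 WT, g300 KO, g317 KO or g320 KO), with adjusted p up to 0.123. Scd1 passed the test without g317 KO (adjusted p = 0.031). The call was lost with the liver covariate by G0s2, Gpihbp1, Fasn, Acaca, Elovl6 and Mlxipl (adjusted p 0.0801 to 0.178). The 12 higher triglyceride genes became 7 without g307 WT, g309 WT or g320 KO and 4 with the liver covariate. The 5 higher fatty acid synthesis genes became 1 without g307 WT, 2 without g309 WT or g317 KO, 3 without g320 KO and 1 with the liver covariate.

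Insulin-pathway genes rose together with Slc2a4, 10 of 19, while 2 fell (median 0.40). Foxo1, a transcription factor that insulin restrains, rose by 0.65, the kinase Akt2 by 0.52, Pde3b, the phosphodiesterase through which insulin blocks lipolysis, by 0.61, and hexokinase Hk2 by 0.50. The genes that fell were both brakes on insulin signalling, Grb14 (-0.78), an inhibitor of the receptor, and the ubiquitin ligase Cbl (-0.33). Without single arrays the test was no longer passed by Cbl (without g286 WT, g307 WT, g309 WT, g317 KO or g320 KO), with adjusted p up to 0.084. With the liver covariate the test was not passed by Cbl (adjusted p = 0.158).

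The response to catecholamines was mixed, with 6 of 16 genes higher and 3 lower (median 0.19). Gnal, a stimulatory G protein subunit that couples receptors to cyclic AMP, read 8.30, 8.40, 8.14, 8.31 and 8.19 on the wild-type arrays and 5.57, 5.10, 5.02, 6.58 and 6.17 on the knockout arrays, a fall of 2.58 (SE 0.32, adjusted p = 7.37e-05). The wild-type arrays lay close together and above all knockout arrays. Adcy3, an adenylate cyclase, and Hcar2, the niacin receptor, fell by 0.79 and 0.70, whereas the melanocortin receptor Mc2r and the prostaglandin receptor Ptger3 rose by 0.67 and 0.63. Of 19 genes of thermogenic fat only Ucp1, the uncoupling protein of brown fat, was called. It read 7.39, 6.47, 4.71, 6.42 and 7.13 in wild-type and 4.17, 4.39, 4.09, 3.76 and 4.06 in knockout samples, a change of -2.33 (SE 0.46, adjusted p = 0.00224). Array g307 WT, the lowest of its group at 4.71, was the one closest to the knockout arrays, and the groups did not overlap. Cidea, Dio2 and Ppargc1a, other genes of thermogenic fat, differed by 0.18, -0.25 and 0.26 without passing the test. On leaving out 1 array the test was no longer passed by Hcar2 (without g309 WT, g306 KO or g317 KO), Mc2r (without g307 WT, g309 WT or g300 KO) and Ptger3 (without g286 WT, g307 WT, g309 WT, g306 KO, g317 KO or g320 KO), with adjusted p up to 0.0909. Adding the liver mean as a covariate ended the call of Hcar2, Mc2r and Ptger3 (adjusted p 0.105 to 0.171). The 1 lower thermogenic gene became 2 without g300 KO, g306 KO or g318 KO.

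Mitochondrial genes rose by small amounts, and those that break down branched-chain amino acids by the most. Of 36 respiratory chain genes 11 rose (median 0.21), from Ndufa9 (0.20) to Ndufa5 (0.46), both of complex I. The citric acid cycle had 6 of 16 genes higher (median 0.28), led by Pcx, pyruvate carboxylase (0.62), and fatty acid oxidation 6 of 21 (median 0.21), led by the peroxisomal enzyme Ehhadh (0.93). Breakdown of leucine, isoleucine and valine, a known activity of mature fat cells, had 15 of 19 genes higher, with a median of 0.58. Hibch, an enzyme of valine breakdown, read 6.75, 6.79, 6.27, 6.83 and 6.13 in wild-type and 6.98, 7.43, 7.49, 7.27 and 7.70 in knockout samples, a rise of 0.82 (SE 0.15, adjusted p = 0.0011), and its arrays did not overlap. The branched-chain aminotransferase Bcat2 rose by 0.63, the dehydrogenase subunits Bckdha and Dbt by 0.77 and 0.77, and Aldh6a1 and Ivd, further down the pathway, by 0.76 and 0.75. By limma 0 genes fell on the lists of mature fat cells, triglyceride, fatty acid synthesis and oxidation, the respiratory chain, the citric acid cycle and branched-chain amino acids, and at an unadjusted p under 0.05 there were 1 lower triglyceride gene and 2 lower genes of fatty acid oxidation. When 1 array was left out the test was no longer passed by Ndufa9 (without g286 WT, g287 WT, g307 WT, g308 WT, g309 WT, g300 KO, g306 KO, g317 KO, g318 KO or g320 KO), with adjusted p up to 0.132. The call was lost with the liver covariate by Ndufa9 (adjusted p = 0.119). The 11 higher respiratory chain genes became 5 without g307 WT, g309 WT or g317 KO, 6 without g308 WT or g320 KO, 7 without g286 WT or g318 KO and 6 with the liver covariate. The 6 higher citric acid cycle genes became 3 without g307 WT, g309 WT or g320 KO and 2 with the liver covariate. The 6 higher fatty acid oxidation genes became 3 with the liver covariate.

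To see which fat-cell genes moved by more or less than fat-cell transcripts in general, each array was centred on its fat-cell anchor, which subtracts 0.34 from every difference and lowers the median over all genes to -0.33. A gene that did not differ before then looks lower: 41.5% of all genes were called lower and 1.08% higher, so that the higher calls among fat-cell genes are the ones to read. Together these are 8298 genes, 5130 without g307 WT, 5209 without g309 WT and 12022 with only the first 5 anchor genes. Of the 208 fat-cell genes 20 were higher and 37 lower than the anchor, and their median fell to -0.07. The genes above the anchor included Orm3 at 2.44 (adjusted p = 4.36e-07), Timp4 at 1.54 (adjusted p = 1.49e-06), Thrsp at 1.45 (adjusted p = 0.000109) and Pck1 at 1.44 (adjusted p = 0.000151). Retn followed at 1.04 (adjusted p = 8.62e-06), Rbp4 at 0.98 (adjusted p = 0.0003), Slc2a4 at 0.89 (adjusted p = 0.000326) and Klf15 at 0.79 (adjusted p = 0.00458). Of the branched-chain genes Hibch was at 0.48 (adjusted p = 0.0106), Dbt at 0.43 and Bckdha at 0.42, also called.

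The respiratory chain did not exceed the anchor: its median relative to it was -0.13, with 0 genes higher and 2 lower. The median of the triglyceride genes, a list that includes anchor genes, was 0.02. Branched-chain amino acid genes kept a median of 0.24 above it, with 6 higher and 0 lower. Genes below the anchor included Gnal at -2.92 (adjusted p = 7.3e-06), Ucp1 at -2.67 (adjusted p = 0.000362), Lcn2 at -1.74 (adjusted p = 0.00366), Adcy3 at -1.13 (adjusted p = 0.000159) and Grb14 at -1.12 (adjusted p = 0.000106). The fatty acid translocase Cd36 was at -0.46 (adjusted p = 0.00286), but it differed by only -0.12 before the centring and was not called then. Each of Orm3, Timp4, Thrsp, Pck1, Retn, Rbp4, Slc2a4, Klf15, Gnal and Ucp1 was called on the same side of the anchor in all 12 alternatives run for it, namely 5 anchor genes, the g arrays alone and each g array left out in turn.

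**Figure D3:**
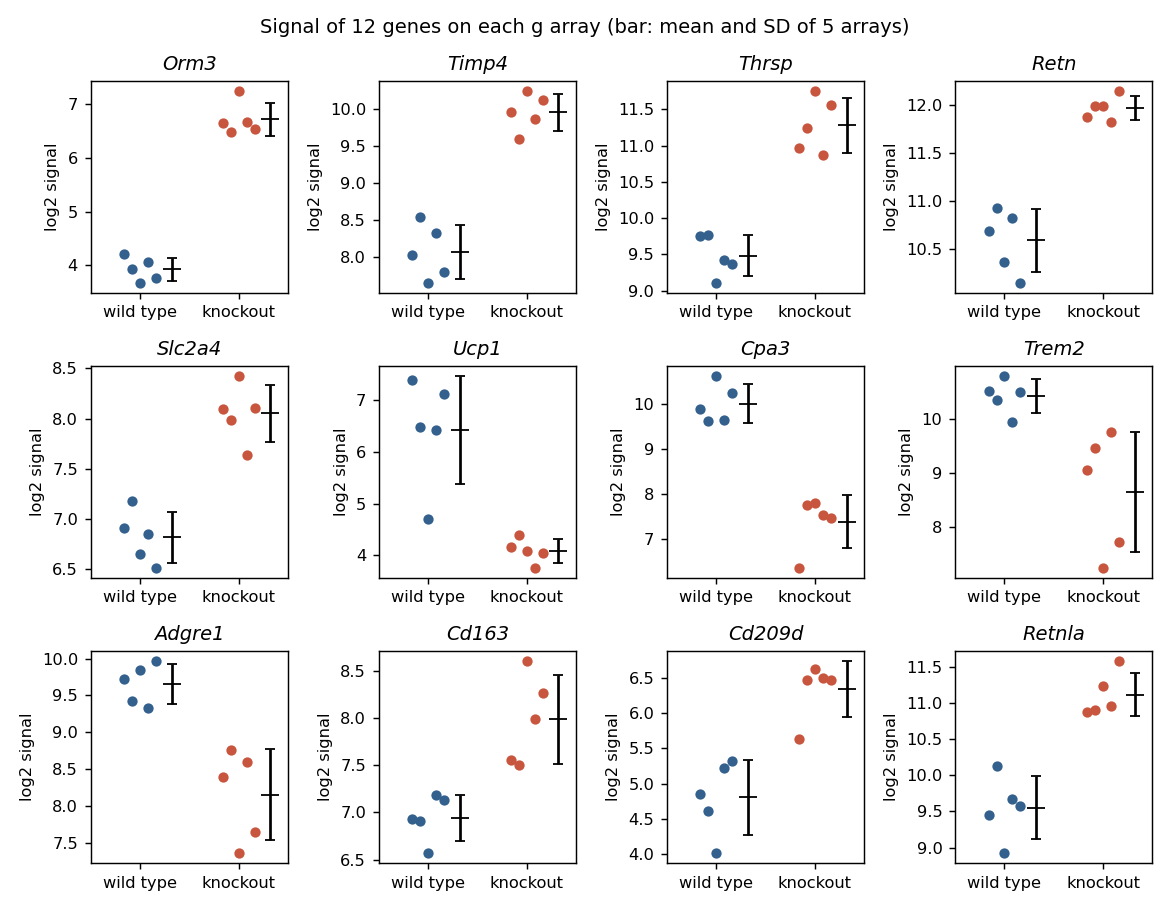
Log2 signal (vertical axis) of 12 genes on the 5 wild-type and 5 knockout g arrays, 1 point per array, with the mean and SD of each group beside the points. Orm3, Timp4, Thrsp, Retn, Slc2a4, Cd163, Cd209d and Retnla lie higher and Ucp1, Cpa3, Trem2 and Adgre1 lower on the knockout arrays, and in each panel the groups do not overlap.

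The liver signal was set against genes with large rises. On g300 KO, whose liver mean was 5.50, Orm3 read 6.65, Timp4 9.95 and Cyp2e1 10.61, above all wild-type arrays. With the liver mean as a covariate the differences were 2.64 (adjusted p = 1.73e-07) for Orm3, 1.79 (adjusted p = 1.86e-05) for Timp4, 1.76 (adjusted p = 0.000319) for Thrsp and 1.67 (adjusted p = 0.000785) for Pck1. The only knockout array with a liver mean under 7, which has no spread of its own and gives no test, differed from the 3 such wild-type arrays by 2.86 for Orm3, 1.95 for Timp4, 1.56 for Thrsp and 1.65 for Pck1. Cyp2e1, a cytochrome P450 of liver and fat, read 8.67, 8.96, 7.84, 9.75 and 7.62 in wild-type and 10.61, 10.99, 11.84, 10.51 and 12.01 in knockout samples, a rise of 2.62 (SE 0.37, adjusted p = 0.000195), and 2.17 (adjusted p = 0.00136) with the covariate. Arg1, arginase, an enzyme of liver and of alternatively activated macrophages, behaved otherwise: it read 5.92, 4.24, 4.21, 6.51 and 5.31 and 4.22, 6.99, 8.11, 5.98 and 6.74, highest on the arrays with the most liver signal, and its difference of 1.17 (adjusted p = 0.249) became -0.06 (adjusted p = 0.94) with the covariate. Arg1 passed the test without g300 KO (adjusted p = 0.0456).

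**Figure D4:**
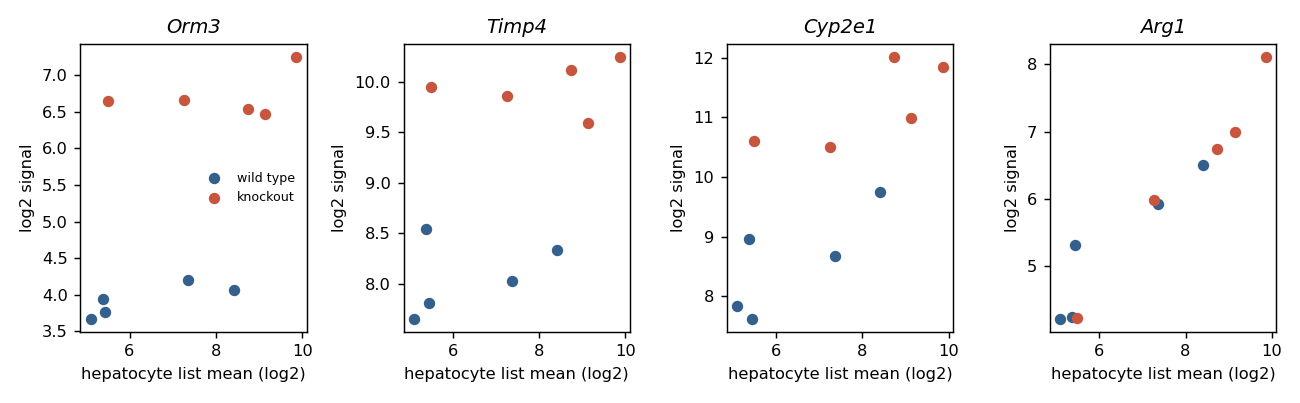
Log2 signal of Orm3, Timp4, Cyp2e1 and Arg1 (vertical axes) against the mean log2 signal of the liver genes (horizontal axis), 1 point per g array. In the panels of Orm3, Timp4 and Cyp2e1 all knockout points lie above all wild-type points, also at the liver mean of 5.50 of g300 KO; in the Arg1 panel the genotypes mix and the signal is higher at higher liver means.

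Macrophage genes fell as a group. Of 19 general leukocyte genes 9 fell (median -0.94), and of 22 macrophage genes 18 fell (median -0.98). Adgre1, the macrophage surface protein F4/80, read 9.73, 9.43, 9.84, 9.32 and 9.97 in wild-type and 8.40, 8.77, 7.37, 8.60 and 7.65 in knockout samples, a change of -1.50 (SE 0.23, adjusted p = 0.000389). The groups did not overlap, and arrays g317 KO and g320 KO were the lowest. The scavenger receptor Msr1 fell by 1.66, the Fc receptor Fcgr1 by 1.51, the pore-forming protein Mpeg1 by 1.59, and the complement subunits C1qa, C1qb and C1qc by 1.07, 0.89 and 1.03. Mertk, a receptor for dying cells, differed by 0.08 (adjusted p = 0.764). With the liver mean as a covariate the difference of Adgre1 was -1.34 (adjusted p = 0.00398), and -1.34, with no test, between g300 KO and the 3 wild-type arrays with little liver signal. The 9 lower general leukocyte genes became 5 with the liver covariate.

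The genes of lipid-associated macrophages included some of the larger falls, 10 of 14 (median -1.08). Trem2, the lipid receptor that marks these cells, read 10.54, 10.35, 10.81, 9.96 and 10.51 on the wild-type arrays and 9.05, 9.47, 7.24, 9.77 and 7.72 on the knockout arrays, a change of -1.78 (SE 0.37, adjusted p = 0.0037). Arrays g317 KO and g320 KO stood well below the other 3 knockout arrays, and none overlapped with wild type. Itgax, the integrin CD11c, fell by 1.60, Gpnmb, a glycoprotein of lipid-laden phagocytes, by 1.23, the tetraspanin Cd9 by 1.07 and the lysosomal acid lipase Lipa by 1.06. Acp5, an acid phosphatase, was the only member to rise (0.36). With the liver mean as a covariate the difference of Trem2 was -1.54 (adjusted p = 0.0293), and with the leukocyte anchor as a covariate -1.66 (adjusted p = 0.0543). With 1 array fewer the test was no longer passed by Gpnmb (without g286 WT, g287 WT, g307 WT, g309 WT, g317 KO or g320 KO), with adjusted p up to 0.116. With the liver covariate the test was not passed by Itgax and Gpnmb (adjusted p 0.0976 to 0.174).

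Macrophage genes of the resident and alternatively activated kind split. Of 17 genes 6 rose and 5 fell (median 0.15). Cd163, the scavenger receptor for haemoglobin, read 6.93, 6.90, 6.57, 7.19 and 7.14 in wild-type and 7.56, 7.51, 8.61, 7.99 and 8.27 in knockout samples, a rise of 1.04 (SE 0.22, adjusted p = 0.0035). Retnla, a secreted protein of alternatively activated macrophages and fat tissue, read 9.45, 10.13, 8.92, 9.67 and 9.58 against 10.88, 10.91, 11.23, 10.96 and 11.58, a rise of 1.56 (SE 0.19, adjusted p = 6.38e-05). Cd209d, a C-type lectin, read 4.86, 4.61, 4.02, 5.22 and 5.33 and 5.63, 6.47, 6.62, 6.50 and 6.47, a rise of 1.53 (SE 0.23, adjusted p = 0.000279). None of these 3 genes overlapped between genotypes. Lyve1, the hyaluronan receptor of macrophages along vessels and of lymphatic vessels, rose by 1.10, the lectin Mgl2 by 0.79 and the carbonyl reductase Cbr2 by 0.67. Folr2, the folate receptor (-1.08), the scavenger receptor Stab1 (-0.88), platelet factor Pf4 (-0.70) and the mannose receptor Mrc1 (-0.56), which also mark resident macrophages, fell. With the liver mean as a covariate the rise was 1.46 (adjusted p = 0.000602) for Retnla, 1.37 (adjusted p = 0.00281) for Cd209d, 0.92 (adjusted p = 0.0265) for Cd163 and 0.90 (adjusted p = 0.107) for Lyve1. Without single arrays the test was no longer passed by Lyve1 (without g307 WT, g317 KO or g320 KO), with adjusted p up to 0.0638. Adding the liver mean as a covariate ended the call of Cbr2 (adjusted p = 0.0662).

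**Figure D5:**
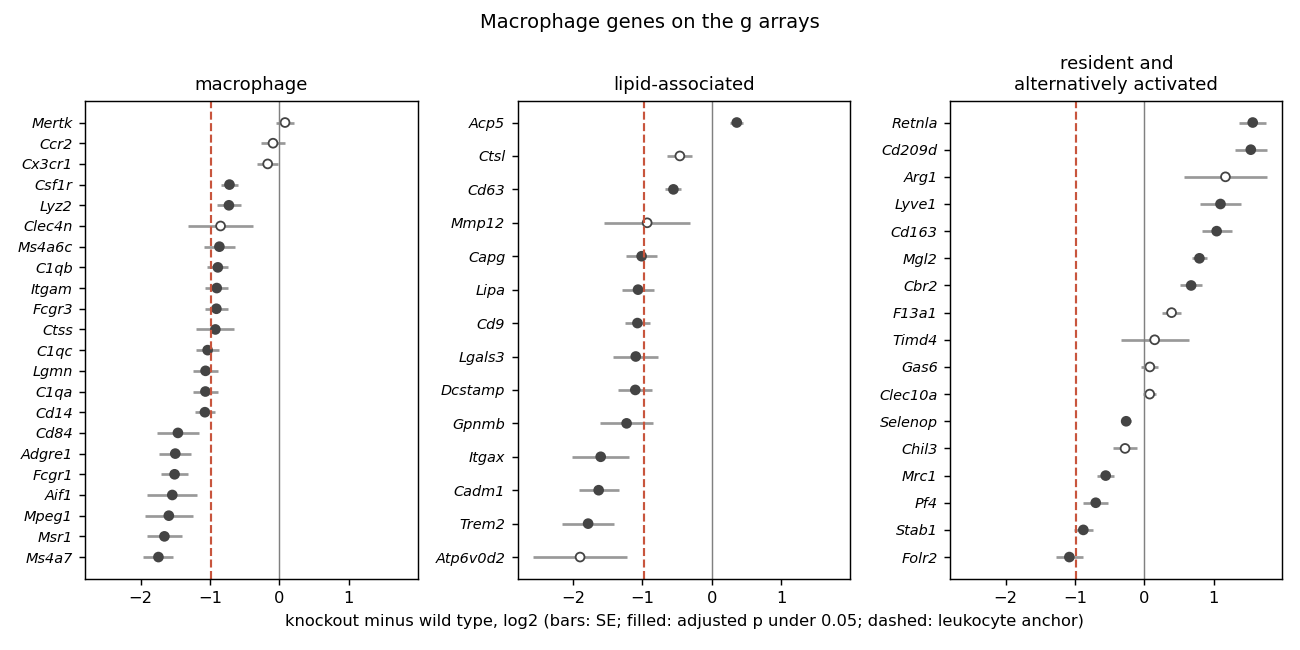
Knockout minus wild-type difference (log2, horizontal axis, with SE) of each gene on the 3 macrophage lists; filled points had an adjusted p under 0.05, the grey line marks 0 and the dashed line the leukocyte anchor's difference of -0.98. The medians of the first and second panel are -0.98 and -1.08, and the genes of the third spread from -1.08 (Folr2) to 1.56 (Retnla).

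The mast cell list had the lowest median of the immune lists, -1.26, and 14 of its 16 genes fell. Mcpt4, a granule chymase, read 8.99, 8.53, 9.72, 8.41 and 9.16 in wild-type and 4.76, 7.06, 6.75, 6.37 and 6.61 in knockout samples, a change of -2.65 (SE 0.38, adjusted p = 0.000206). Cpa3, the granule carboxypeptidase, read 9.89, 9.63, 10.63, 9.66 and 10.26 and 6.36, 7.76, 7.80, 7.54 and 7.48, a change of -2.63 (SE 0.31, adjusted p = 4.62e-05). All knockout arrays were below all wild-type arrays for both, and g300 KO was the lowest for each. The tryptase Tpsb2 fell by 2.19, the prostaglandin D synthase Hpgds by 2.14, the receptor Mrgprb1 by 2.28, the chymase Cma1 by 1.70, the histidine decarboxylase Hdc by 1.28 and the IgE receptor subunits Fcer1a and Ms4a2 by 1.54 and 0.99. Kit, the receptor for stem cell factor, fell by 0.63, and Gata2, a transcription factor of mast cells and endothelium, differed by -0.21 (adjusted p = 0.352). With the liver mean as a covariate the difference was -2.72 (adjusted p = 0.00117) for Mcpt4 and -2.64 (adjusted p = 0.000319) for Cpa3. On leaving out 1 array the test was no longer passed by Kit (without g286 WT, g307 WT, g309 WT, g317 KO, g318 KO or g320 KO), with adjusted p up to 0.109. The call was lost with the liver covariate by Kit (adjusted p = 0.074).

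Promoters of these proteases are shown because they had the largest falls among called genes. The windows, again 250 bases before to 50 after the RefSeq start (GRCm38.p6), lie at chr3:20242132-20242431 on the minus strand for Cpa3 and chr14:56062261-56062560 on the minus strand for Mcpt4 and run 5′ to 3′ along the gene. Capitals mark GATAA, the core site of GATA factors, searched on both strands.
Cpa3: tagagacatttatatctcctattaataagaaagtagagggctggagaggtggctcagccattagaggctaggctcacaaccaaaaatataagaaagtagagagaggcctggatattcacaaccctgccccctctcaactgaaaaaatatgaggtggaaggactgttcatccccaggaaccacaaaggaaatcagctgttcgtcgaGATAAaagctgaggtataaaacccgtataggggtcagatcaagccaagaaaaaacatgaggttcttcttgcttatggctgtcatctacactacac
Mcpt4: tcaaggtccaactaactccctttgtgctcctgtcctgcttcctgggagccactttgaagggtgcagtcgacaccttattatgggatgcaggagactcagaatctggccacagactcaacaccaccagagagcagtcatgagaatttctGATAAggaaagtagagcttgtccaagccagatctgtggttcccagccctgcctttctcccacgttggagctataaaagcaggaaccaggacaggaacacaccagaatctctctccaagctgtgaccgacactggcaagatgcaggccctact
Each window holds it at 1 place, its first base at -45 in Cpa3 and -102 in Mcpt4. The motif occurs in 8 of the 14 mast cell genes with a window (57.1%) and in 25.8% of all promoters.

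Innate immune effectors fell alongside. Of 19 pattern recognition genes 14 fell (median -0.97), among them Tlr1 (-1.98), Tlr13 (-1.89), Tlr8 (-1.31) and Tlr7 (-1.25), which sense microbial lipopeptides and RNA, and Casp1, the caspase that activates interleukin-1 beta (-1.01). Of 13 phagocyte oxidase and Fc receptor genes 12 fell (median -0.97), including Cybb, the oxidase's catalytic subunit (-1.06), and Fcgr4 (-1.76). Of 16 lysosomal genes 13 fell (median -0.57), including cathepsin Ctsk (-1.56) and the hexosaminidase subunit Hexa (-0.71). On these 3 lists, as on the leukocyte, macrophage and mast cell lists, 0 genes were called higher by limma, and 0 at an unadjusted p under 0.05. With the liver covariate the test was not passed by Tlr1 (adjusted p = 0.0676). The 14 lower pattern recognition genes became 9 with the liver covariate. The 12 lower phagocyte oxidase and Fc receptor genes became 6 without g307 WT, g309 WT or g317 KO, 7 without g320 KO and 6 with the liver covariate.

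Signals between immune cells changed in fewer genes. Of 22 chemokines 8 fell and 1 rose (median -0.62). Ccl3, which attracts monocytes, read 8.99, 8.35, 9.03, 8.70 and 9.74 in wild-type and 6.92, 7.56, 6.05, 7.14 and 5.93 in knockout samples, a change of -2.24 (SE 0.29, adjusted p = 0.000106) without overlap. Ccl24, an attractant of eosinophils made by alternatively activated macrophages, was the one that rose, with 6.35, 6.58, 5.62, 5.85 and 6.17 against 6.79, 6.89, 7.71, 7.18 and 7.47, a rise of 1.09 (SE 0.19, adjusted p = 0.000847). Ccl2, the main monocyte attractant, differed by -0.48 (adjusted p = 0.346). Of 20 cytokines 4 fell: Tnf (-1.02), the anti-inflammatory Il10 (-0.71), the receptor antagonist Il1rn (-1.51) and Tgfb1 (-0.56). Il1b differed by -1.50 (adjusted p = 0.142). When 1 array was left out the test was no longer passed by Tnf (without g286 WT, g307 WT, g309 WT, g317 KO or g320 KO) and Il1rn (without g307 WT, g309 WT, g317 KO or g320 KO), with adjusted p up to 0.103. Il1b passed the test without g309 WT (adjusted p = 0.0335). Adding the liver mean as a covariate ended the call of Tnf, Il1rn and Tgfb1 (adjusted p 0.0795 to 0.189). The 8 lower chemokine genes became 4 with the liver covariate. The 4 lower cytokine genes became 2 without g307 WT, g317 KO or g320 KO and 1 with the liver covariate.

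The other immune classes had few or no calls. In 15 T cell, 12 B cell and 11 natural killer cell genes 0 were called by this limma fit, with medians of -0.41, -0.52 and -0.03; at an unadjusted p under 0.05 there were 1, 1 and 0. The T cell list means were 5.65 to 6.60 on the wild-type arrays and 5.23 to 5.76 on the knockout arrays. Those of B cells were 6.02 to 6.95 and 5.66 to 5.92, without overlap. All 15 T cell and all 12 B cell genes lay below 0, as did 6 of the 11 natural killer cell genes. The lack of calls therefore does not show a lack of change. Of 11 monocyte and neutrophil genes S100a8 (-1.84), a calcium-binding alarmin, was called, and of 6 eosinophil genes Ccr3 (-1.38), the eotaxin receptor. In 12 dendritic cell genes Cd209a (0.60), a lectin, rose and Irf8 (-0.64), a transcription factor that monocytes and B cells also use, fell. Of 19 interferon-stimulated genes 2 fell, Oas1a (-0.67) and Oasl2 (-0.48) of the oligoadenylate synthetase family (median 0.03), and of 8 antigen presentation genes 1 fell, H2-DMb1 (-0.74), a chain of the protein that loads peptides onto MHC class II (median -0.47). With 1 array fewer the test was no longer passed by Cd209a (without g286 WT, g307 WT, g309 WT, g317 KO or g318 KO), Irf8 (without g286 WT, g287 WT, g307 WT, g309 WT, g317 KO or g320 KO), Oas1a (without g307 WT, g309 WT, g317 KO, g318 KO or g320 KO), Oasl2 (without g287 WT, g307 WT, g309 WT, g300 KO, g318 KO or g320 KO) and H2-DMb1 (without g309 WT, g317 KO or g320 KO), with adjusted p up to 0.131. The call was lost with the liver covariate by Irf8, Oas1a, Oasl2 and H2-DMb1 (adjusted p 0.118 to 0.231). The 1 lower monocyte and neutrophil gene became 2 without g308 WT or g306 KO. The 1 lower antigen presentation gene became 0 without g309 WT, g317 KO or g320 KO, 2 without g308 WT or g318 KO and 0 with the liver covariate.

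Centring each array on its leukocyte anchor shows which immune genes moved by more or less than the mean of the anchor's genes. It adds 0.98 to every difference and lifts the median over all genes to 1.0, so that 84.9% of genes were called higher and 0.128% lower. A gene that is not expressed in leukocytes, or not detected, rises by this step alone, and the lower calls are the ones to read. The medians of the macrophage, lipid-associated macrophage, phagocyte oxidase and pattern recognition lists came to 0.0028, -0.10, 0.01 and 0.01, and that of the mast cell list to -0.28. The phagocyte oxidase list shares Fcer1g with the anchor. The medians of the T cell and B cell lists came to 0.57 and 0.47. Of the 269 immune genes 9 were below the anchor: the mast cell genes Mcpt4 at -1.67 (adjusted p = 0.00341), Cpa3 at -1.64 (adjusted p = 0.00277), Mrgprb1 at -1.30, Tpsb2 at -1.21 and Hpgds at -1.16, then Ccl3 at -1.26 (adjusted p = 0.0118), Tlr1 at -1.0, Tlr13 at -0.91 and Ms4a7, a membrane protein of macrophages, at -0.76. Trem2, at -0.80 (adjusted p = 0.0641), was not among them. Retnla, Cd209d and Cd163 stood at 2.54, 2.51 and 2.02; these 3 also rose without the centring. Mcpt4, Cpa3, Mrgprb1 and Tpsb2 were called below the anchor in all 12 alternatives run for it, and Ms4a7 in 4. This reading rests on few arrays: without g317 KO, 1410 genes in all were called relative to the leukocyte anchor instead of 16579, and without g320 KO, 10521.

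Outside the fat-cell and immune lists, genes of cell division fell, 24 of 29 with a median of -0.98. Mki67, the proliferation marker, read 8.32, 7.93, 8.36, 8.25 and 8.14 in wild-type and 6.98, 7.41, 5.70, 7.85 and 6.44 in knockout samples, a change of -1.32 (SE 0.30, adjusted p = 0.00693), and the spindle checkpoint kinase Bub1 fell by 1.44. The Mki67 groups did not overlap. Which cells divided was not tested, and relative to the leukocyte anchor the list's median was -0.0035. Of 17 precursor and fibroblast genes 7 fell (median -0.27), among them the matrix genes Lum (-1.26), Postn (-0.85) and Col3a1 (-0.71), while the precursor marker Dpp4 differed by 0.36 (adjusted p = 0.466). Of 15 endothelial genes 1 rose, the adhesion molecule Esam (0.35), and of the 11 mesothelial and 23 liver genes 0 were called by limma, with 5 and 15 higher at an unadjusted p under 0.05. The liver list had a median of 1.86, with overlapping arrays. Without single arrays the test was no longer passed by Postn (without g286 WT, g307 WT, g308 WT, g309 WT, g317 KO or g320 KO) and Esam (without g286 WT, g307 WT, g309 WT, g300 KO or g317 KO), with adjusted p up to 0.128. With the liver covariate the test was not passed by Mki67, Postn and Esam (adjusted p 0.0542 to 0.128). The 24 lower cell division genes became 15 with the liver covariate.

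Several large changes lay in genes on none of the lists. Chst1, a keratan sulphate sulphotransferase, read 7.14, 7.51, 7.21, 7.01 and 7.38 in wild-type and 9.09, 8.42, 9.13, 8.93 and 9.26 in knockout samples, a rise of 1.71 (SE 0.18, adjusted p = 1.28e-05). Apcdd1, an inhibitor of Wnt signalling, read 7.84, 8.29, 7.71, 8.02 and 7.95 and 9.61, 9.38, 9.94, 9.42 and 9.72, a rise of 1.65 (SE 0.14, adjusted p = 2.42e-06). Both rises were larger than the spread among the arrays of either genotype. Popdc2, a cyclic AMP-binding membrane protein of heart and muscle, and Dtna, dystrobrevin alpha, rose by 1.83 and 1.74. Rnase2a, an eosinophil-type ribonuclease, rose by 1.49. Among the falls were Rgs1, a regulator of G protein signalling in leukocytes (-2.29), Itgad, the integrin CD11d of fat macrophages (-2.01), and Stap1, an adaptor of blood cells (-2.01). On the knockout arrays Rgs1 read 7.76, 8.59, 4.94, 8.85 and 6.51, and Stap1 7.36, 8.0, 5.30, 7.95 and 5.89. Both were lowest on g317 KO and g320 KO, the arrays with the lowest leukocyte anchor. Both also fell by more than that anchor. Relative to it Rgs1 was at -1.31 (adjusted p = 0.0111) and Stap1 at -1.03 (adjusted p = 0.0141), each called in 11 of 12 alternatives. Myh15, a myosin heavy chain, read 7.29, 6.87, 7.28, 6.90 and 6.52 and 4.95, 5.39, 4.20, 5.29 and 4.16, a change of -2.17 (SE 0.22, adjusted p = 8.71e-06). On leaving out 1 array the test was no longer passed by Stap1 (without g307 WT, g309 WT, g317 KO or g320 KO), with adjusted p up to 0.0811. Adding the liver mean as a covariate ended the call of Rgs1 and Stap1 (adjusted p 0.0524 to 0.153).

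Genes next to Olfm2 were examined because a knockout can carry the chromosome of its source strain around the target. Of the 40 measured genes nearest to it, 20 on each side in the RefSeq order, 6 were called: Fbxl12os, an antisense transcript, was higher (0.65), and Zfp846 (-0.51), Shfl (-0.40), Dnmt1 (-1.0), S1pr2 (-0.68) and Icam1 (-0.51) were lower. Dnmt1, the maintenance DNA methyltransferase of dividing cells, read 7.88, 7.55, 7.68, 7.78 and 7.68 in wild-type and 6.62, 6.79, 6.66, 7.04 and 6.47 in knockout samples. The groups did not overlap. The share called was 15.0%, against 11.3% of all genes. The 40 include dim olfactory receptor genes, with wild-type means from 2.22 (Olfr77) to 4.23 (Olfr870), and none of these was called. Relative to the leukocyte anchor Dnmt1 was at -0.02 (adjusted p = 0.964), and none of the lower neighbours was called. When 1 array was left out the test was no longer passed by Shfl (without g286 WT, g307 WT, g306 KO or g318 KO) and Icam1 (without g286 WT, g307 WT, g309 WT, g317 KO, g318 KO or g320 KO), with adjusted p up to 0.096. The call was lost with the liver covariate by Shfl and Icam1 (adjusted p 0.0634 to 0.156).

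Few genes were called for a difference between the knockout effects in g and sc, which does not show that the others responded alike. The medians of the general leukocyte, T cell and B cell lists were -0.94, -0.41 and -0.52 in g. In sc they were 0.05, 0.45 and 0.66. Those of the macrophage and mast cell lists were -0.98 and -1.26 in g and -0.45 and -0.27 in sc. The list medians were not tested between depots. The difference of the knockout effects was called for 0.0769% of genes, and the knockout effect within sc for 0.677%. Of the genes described above, Orm3 was in the first group, with a difference of 1.48 (adjusted p = 0.0179) between depots beside 1.30 (adjusted p = 0.000756) in sc, so that it was higher in knockout samples of both. Retn differed by 1.06 (adjusted p = 0.0239), Mgl2 by 0.81 (adjusted p = 0.0374) and Myh15 by -1.77 (adjusted p = 0.0223), and the effect in sc was 0.32 (adjusted p = 0.374), -0.02 (adjusted p = 0.972) and -0.40 (adjusted p = 0.544). For Timp4, Slc2a4, Cpa3 and Trem2 the test of the difference gave 0.68 (adjusted p = 0.202), 0.75 (adjusted p = 0.149), -1.92 (adjusted p = 0.104) and -0.60 (adjusted p = 0.666), which does not show that the depots responded alike.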

How the data were processed

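Expression was measured on mouse arrays. Per the submitters' processing notes the authors used RMA and limma, and the values the authors deposited are on a log2 scale, 1 per probe. Versions, and whether RMA ran on all arrays together, are not stated in the sources used here. Of 28846 probes 6640 controls were left out. The platform annotation gave 19572 of the other 22206 probes 1 gene symbol and 2634 none. Of several probes for a gene (55 genes) the one with the highest mean was kept, which left 19505 genes.

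A limma 3.58.1 fit in R 4.3.3 had 4 group means (16 residual degrees of freedom) and no covariate. Called means an adjusted p under 0.05 (Benjamini-Hochberg over all genes), and SE is the moderated one. Anchored values came from the same fit after each array's anchor mean was subtracted. The fit was tested on simulated data. Gene lists, anchors and the comparison itself were chosen with earlier results of these data known. Lists are described by counts and medians.

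Genes were named by a rule: Olfm2; among called genes without overlap the 12 largest rises and falls, passing over Gm, Rik and olfactory or vomeronasal receptor genes; the first 3 genes of a list and up to 5 called members each way; up to 5 list members each way relative to an anchor; called neighbours of Olfm2. Not every gene that the rule gives is described. Among those left out are Insr, Irs1, Irs2, Acly, Csf1r, Top2a, Pnpla3, Cavin2 and Adcy6. Genes named outside the rule, with their values known, were Adig, C1qa, C1qb, C1qc, Casp1, Cbr2, Cd36, Cebpa, Cma1, Fabp4, Fcer1a, G0s2, Gata2, Hdc, Hk2, Kit, Lpl, Mertk, Ms4a2, Ndufa9, Nrg4, Pnpla2, Pparg, Ppargc1a, Scd1 and Tlr7.

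For arrays the number of samples limits the precision. Alternatives were other samples in the fit, filters, scalings, covariates, a replicate block and leaving out arrays. Wild-type and knockout g arrays share no number in their titles. Promoter windows are those of RefSeq.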

Additional observations from a re-analysis of the deposited data

Results flagged for a closer look

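Among 142 groups of 5 arrays examined (list means and genes in each genotype of g), 8 held an array far from the other 4; chance flags about 1 in 20 groups. Array g309 WT stood above the other wild-type arrays in 3 list means: 6.84 for monocytes and neutrophils (others 5.59 to 5.85), 8.41 for chemokines (7.68 to 7.79) and 6.72 for cytokines (5.94 to 6.10). Array g318 KO was the lowest for mature fat cell genes, with 10.93 (others 11.09 to 11.12). Array g317 KO was the lowest for natural killer cell genes, with 4.73 (others 5.14 to 5.28), and the highest for Orm3, with 7.25 (others 6.47 to 6.66). Array g300 KO, the knockout array without liver signal, was the lowest of its group for Cd209d, with 5.63 (others 6.47 to 6.62), and for Cpa3, with 6.36 (others 7.48 to 7.80).

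The knockout effect differed between depots, by the limma test of the difference, for 4 of the genes described: Orm3 by 1.48 (adjusted p = 0.0179), Retn by 1.06 (adjusted p = 0.0239) and Mgl2 by 0.81 (adjusted p = 0.0374), more positive in g, and Myh15 by -1.77 (adjusted p = 0.0223), more negative in g.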

How the results depend on the processing

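Liver signal, the split of fat-cell and leukocyte RNA and the small number of arrays limit these results. The 2200 called genes became 1072 with the liver mean as a covariate, 43 without the liver-high arrays (1 knockout array left, assumed to vary like the others), 727 with the leukocyte anchor and 197 with the fat-cell anchor as a covariate, 3751 with housekeeping centring, 8298 and 16579 relative to the fat-cell and leukocyte anchors, and 1425 to 2305 with 1 g array left out. In the same order, fat-cell genes called higher went from 80 to 47, 3, 27, 8, 128, 20 and 192, and immune genes called lower from 111 to 71, 11, 45 and 13 under the first 4 of these, and to 9 relative to the leukocyte anchor. Olfm2 was -0.85 (adjusted p = 0.383) without the liver-high arrays, -0.83 (adjusted p = 0.0543) with the leukocyte covariate, -0.61 (adjusted p = 0.0559) with housekeeping centring and 0.18 relative to the leukocyte anchor, and -0.86 to -0.73 with 1 array left out. Genes called relative to the fat-cell anchor numbered 5130 to 9952, and relative to the leukocyte anchor 1410 to 17153, with 1 array left out. With only the first 5 genes of each anchor they numbered 12022 and 17974. Of the 20 fat-cell genes called higher relative to the fat-cell anchor, 19 were not themselves anchor genes. The cause of these changes was not tested.

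Centring on an anchor moves every gene by the same amount and so turned the sign of Olfm2 and of other called genes. Under the other settings, sign changes among the named genes concerned genes that had not been called, except Mc2r. With the liver covariate Arg1 was at -0.057; without the liver-high arrays Arg1 was at -0.37, Ccl2 at 0.25, Dpp4 at -0.18 and Mertk at -0.16. With the leukocyte covariate Lpl was at -0.076, and with the fat-cell covariate Fabp4 was at -0.14, Lep at -0.20, Lpl at -0.24 and Mc2r at -0.045. With housekeeping centring Cd36 was at 0.066. With 1 array left out Fabp4 lay between -0.040 and 0.067. Of 140 named genes 34 lost their call with the liver covariate, and 63 and 95 with the leukocyte and fat-cell covariates. In a fit of the g arrays alone 16 lost it, and with 1 array left out 4 to 27.

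The g samples of the 2 genotypes share no number, and arrays of both depots with the same number had residual correlations of -0.461 to 0.142, over 0.1 for 2 of 10 numbers. With the number as a replicate block 2206 genes were called in g, 80 fat-cell genes higher became 81 and 111 immune genes lower 110, and the depot difference was called for 32 genes instead of 15; of 140 named genes 0 changed their call.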
